A study of Mus musculus with 23 samples.

Results

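The germline genes examined here were Dazl, Ddx4, Mael, Asz1, Tdrd1, Stk31, Sycp1, Sycp3, Hormad1 and Slc25a31, 10 mouse genes whose products act in germ cells and whose promoters are known to carry DNA methylation in somatic tissue. The genes were chosen by name, with earlier results of these data known, and their windows by position. Every window that overlapped 1 kb on either side of an annotated transcription start of these genes (GENCODE M21, GRCm38) was taken, which gave 28 of 333984 windows at E6.5 and 33 of 402812 windows at E7.5. A window is the unit in which the methylation percentages were deposited and holds nominally 100 CpGs, so that it is short where CpGs are dense and long where they are sparse. Counted in the genome sequence, with a CpG counted once for both strands, the windows held a median of 60 CpGs at E6.5 and 51 at E7.5, and why the name gives 100 is not settled here. For each gene the window over its main start, the start carried by most protein-coding transcripts, is called its promoter window. All 10 genes had such a window at both days, out of 20720 autosomal protein-coding genes with a main start.

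DNA methylation had been measured by post-bisulphite adaptor tagging (PBAT), which reads methylation genome-wide from little DNA, in 23 libraries from hybrid mouse embryos. The tissues were the epiblast, from which the embryo proper arises, and the extra-embryonic ectoderm (ExE), a trophoblast tissue of the future placenta. In B6/CAST embryos the mother was C57BL6/Babr and the father CAST/EiJ, and in CAST/B6 embryos the parents were exchanged. In matDKO/CAST embryos the B6/129 mothers carried floxed Dnmt3a and Dnmt3b, the genes of the de novo DNA methyltransferases, deleted in growing oocytes by a Zp3-driven Cre, and the fathers were CAST. The embryos themselves therefore had the wild-type paternal copies of both genes. The E6.5 epiblast was covered by 3 libraries of B6/CAST, 3 of CAST/B6 and 2 of matDKO/CAST, and E6.5 ExE by 2, 2 and 3, each made from a small share of the chromatin of a pool of nominally 4 epiblasts or 8 ExE. At E7.5 each tissue had 2 libraries from B6/CAST and 2 from CAST/B6, each from a single embryo. Libraries of a group count as replicates, so that p-values measure the spread between these libraries. The number of reads behind a value is not part of the tables, so that the depth of single values is unknown and no counting interval is given.

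Most CpG-rich promoters stay free of DNA methylation throughout life. Germline genes are the best known exception: in the early embryo they are held silent by repressor complexes that bind E2F and E-box motifs, and at implantation the de novo methyltransferases, DNMT3B above all, methylate their promoters, which then stay methylated in the soma. In primordial germ cells the methylation is erased and the genes come on. The 10 genes fall into groups by their roles. Dazl encodes an RNA-binding protein that controls the translation of germ cell transcripts. Ddx4 (the Vasa helicase), Mael, Asz1, Tdrd1 and Stk31 belong to the granules in which piRNAs are made and transposons are silenced, Sycp1, Sycp3 and Hormad1 to the meiotic chromosome axis and the synaptonemal complex, and Slc25a31 encodes the mitochondrial ADP/ATP carrier of meiotic germ cells. Transcription of the genes was not analysed here.

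The stretches of 250 bases that precede the RefSeq starts (GRCm38.p6) are shown for 4 genes because they mark the ends of the range found at E7.5: Dazl had the highest promoter methylation, Tdrd1 the lowest, Sycp1 the largest difference between the tissues and Sycp3 the smallest. Capitals mark CpGs, the sites at which methylation was read. Each sequence is written 5′ to 3′ on the strand of its gene and lies whole in the E7.5 promoter window.
Dazl, chr17:50293621-50293870, minus strand: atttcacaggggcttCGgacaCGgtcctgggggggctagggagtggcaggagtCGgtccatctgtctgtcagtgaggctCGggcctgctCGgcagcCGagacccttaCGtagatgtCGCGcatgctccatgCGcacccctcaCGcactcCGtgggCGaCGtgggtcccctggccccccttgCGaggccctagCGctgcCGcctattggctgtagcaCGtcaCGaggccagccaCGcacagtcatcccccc
Sycp1, chr3:102936101-102936350, minus strand: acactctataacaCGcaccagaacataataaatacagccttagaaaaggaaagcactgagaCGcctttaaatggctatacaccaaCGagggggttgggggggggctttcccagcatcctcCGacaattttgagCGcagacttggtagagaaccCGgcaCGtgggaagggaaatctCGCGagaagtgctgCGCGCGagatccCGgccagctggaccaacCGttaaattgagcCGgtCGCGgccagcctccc
Sycp3, chr10:88459337-88459586, plus strand: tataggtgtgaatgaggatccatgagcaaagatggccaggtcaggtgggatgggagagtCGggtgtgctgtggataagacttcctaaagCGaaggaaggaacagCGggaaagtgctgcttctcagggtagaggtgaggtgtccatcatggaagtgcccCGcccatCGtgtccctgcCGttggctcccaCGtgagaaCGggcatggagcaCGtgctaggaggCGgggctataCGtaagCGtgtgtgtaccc
Tdrd1, chr19:56825959-56826208, plus strand: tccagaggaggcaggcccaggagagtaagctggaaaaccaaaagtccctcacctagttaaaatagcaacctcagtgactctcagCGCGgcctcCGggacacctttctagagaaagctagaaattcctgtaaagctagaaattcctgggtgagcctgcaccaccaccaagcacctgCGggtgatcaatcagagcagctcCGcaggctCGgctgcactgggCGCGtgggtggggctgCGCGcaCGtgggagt
These stretches hold 20 CpGs in Dazl, 17 in Sycp1, 12 in Sycp3 and 11 in Tdrd1. Over the 300 bases from 250 before to 50 after the RefSeq start, the 10 genes had 15 to 38 CpGs with a median of 23.0, against a median of 7.0 over 32851 promoters of the same length. The E-box letters CACGTG, which read the same on both strands, occurred in 8 of the 10 promoters (all but Dazl and Asz1) and in 7.15% of all promoters, or 11.3% of the 11378 promoters with at least 15 CpGs. The letters TCCCGC, the core of an E2F site, occurred on either strand in 6 of the 10 (Ddx4, Mael, Sycp1, Sycp3, Hormad1 and Slc25a31), in 19.98% of all promoters and in 45.4% of those with at least 15 CpGs. A match describes the sequence only.

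Library means over the 167307 autosomal windows with a value in all 15 E6.5 libraries ran from 65.9% to 79.4% in the 6 wild-type E6.5 epiblast libraries and from 53.5% to 66.2% in the 4 of ExE, and from 53.1% to 54.7% and 39.6% to 41.8% in matDKO/CAST epiblast and ExE. At E7.5, over 383556 windows with a value in all 8 libraries, they ran from 71.7% to 75.6% in the epiblast and from 56.05% to 59.2% in ExE. A value was missing in 10.8% to 27.8% of the windows of the matDKO/CAST epiblast libraries, in at most 11.1% of any other E6.5 library and in at most 0.0973% at E7.5. As a check of the tissue labels, the promoter windows of Pou5f1 and Nanog, 2 epiblast genes, were lower in the epiblast than in ExE at both days. That of Elf5, a trophoblast gene, was higher in the epiblast at E7.5 by 22.0 percentage points (limma, adjusted p = 0.000299) and by 9.07 points at E6.5 (adjusted p = 0.0954). Elf5 is a weak check, because 82.9% of all windows were called higher in the E7.5 epiblast. The median difference over all windows was 16.5 points at E7.5 and 16.6 points at E6.5.

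The first question was whether these promoters are methylated at all in the early embryo, and whether they stand apart from other promoters in windows of like length. At E7.5, 6 of the 10 promoter windows were shorter than 2 kb, and 5 of these (Dazl, Mael, Asz1, Sycp1 and Sycp3) had a mean of at least 50% in the epiblast, against 1.58% of the 8693 promoter windows under 2 kb of all genes. In E7.5 ExE 4 of the 6 (all but Sycp1 and Tdrd1) reached 50%, against 1.15% of the 8710 windows. The genes were chosen as known for such methylation, so these shares describe them and are no test of the trait. At E6.5 only 3 promoter windows were under 2 kb, of which Dazl and Slc25a31 reached 50% in the wild-type epiblast, against 1.72% of such windows, and Dazl alone in ExE, against 1.07%.

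The length of the window decided with which promoters a gene could be compared. Dazl, with 89.5% ± 3.42 (SD, n = 4) in the E7.5 epiblast, lay above 99.98% of the 5923 promoter windows under 1 kb, whose median was 1.07%. Mael, with 61.7% ± 7.33 (SD, n = 4) in a window of 543 bp, lay above 99.81% of the same windows. Both genes were thus among the most methylated short promoter windows of the genome in this tissue. Among the 2770 windows of 1 to 2 kb, with a median of 11.1%, Asz1 lay above 99.06%, Sycp1 above 97.76%, Sycp3 above 96.79% and Tdrd1 above 94.37%. In windows of 2 to 4 kb, with a median of 40.1%, Hormad1 lay above 88.9% of 4188 windows, Slc25a31 above 73.7% and Ddx4 above 67.4%. Stk31 had the longest promoter window, 4468 bp, and its mean of 54.1% ± 9.01 (SD, n = 4) was above only 14.2% of the 6670 windows of 4 kb or more, whose median was 76.5%. In the windows over 2 kb, those of 4 genes, 73.6% to 81.6% of the CpGs lay within 1 kb of the start, against all CpGs in the 5 shortest windows and 87.2% at Tdrd1. In ExE the order by length was alike: Dazl lay above 99.98% of the windows under 1 kb and Mael above 99.83%, and Stk31 lay above 10.9% of those of 4 kb or more.

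**Figure D1:**
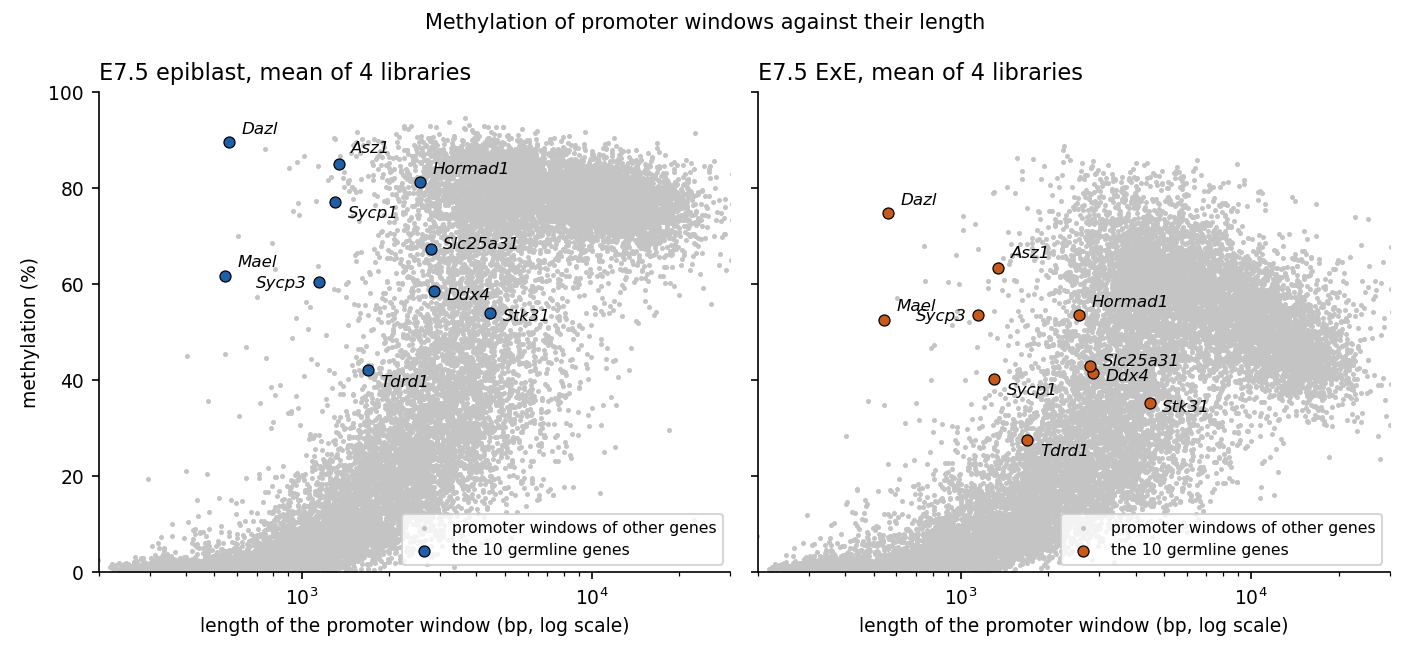
Mean methylation (%) of the promoter window of each autosomal protein-coding gene against the length of that window (bp, log scale), in 4 E7.5 epiblast libraries on the left and 4 E7.5 ExE libraries on the right, with the 10 germline genes as large points. Short windows of other genes lie near 0, with a median of 1.07% under 1 kb in the epiblast, whereas Dazl lies at 89.5% and Mael at 61.7%.

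The window lengths also differed between the tables of the days. Promoter windows of the 10 genes had 682 to 6347 bp at E6.5 with a median of 2991 bp and 543 to 4468 bp at E7.5 with a median of 1518.5 bp. At E6.5 the promoter window of Sycp1 ran from position -5443 to 8 relative to the start, and at E7.5 from -1086 to 216, in bp with downstream positive. Values of the same gene at the 2 days thus often describe different stretches of DNA, as given for each gene below.

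The second question was how the tissues differ, since the bulk of the ExE genome is less methylated than that of the epiblast. At E7.5 the epiblast was higher than ExE at 8 of the 10 promoter windows (limma, adjusted p under 0.05) and lower at 0. This has to be read against 82.9% of all 383556 windows and 43.6% of the 19549 promoter windows of all genes, which were called higher in the epiblast as well. The median difference over the 10 genes was 17.95 percentage points, close to the median of 16.5 points over all windows. Sycp1 and Hormad1 differed most, and Sycp3 and Mael did not pass the test. The genes are taken in turn below, with the value of every library.

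Among the piRNA and RNA-binding genes, the E7.5 promoter window of Dazl (chr17:50293478-50294040, 563 bp) had 89.4% and 87.7% in the B6/CAST epiblast and 86.7% and 94.4% in CAST/B6. The ExE libraries had 78.8% and 70.9% in B6/CAST and 80.2% and 69.4% in CAST/B6. Every epiblast library lay above every ExE library, and ExE still had its highest level of the 10 genes here. The difference was 14.7 points ± 3.24 (SE, adjusted p = 0.00272). At Asz1 (chr6:18108327-18109669, 1343 bp), an ankyrin repeat protein that anchors the granules to mitochondria, the epiblast had 88.5%, 77.5%, 89.4% and 84.9% and ExE 63.3%, 60.9%, 63.3% and 66.0%, in the order B6/CAST replicates 1 and 2 and CAST/B6 replicates 1 and 2 that is kept from here on. The tissues did not overlap, and the difference was 21.7 points ± 2.83 (SE, adjusted p = 0.000219). Mael (chr1:166238403-166238945, 543 bp), a protein needed to silence transposons in spermatocytes, had 70.1%, 52.4%, 61.1% and 63.4% in the epiblast and 62.3%, 48.2%, 45.1% and 54.8% in ExE. Here the tissues overlapped, B6/CAST replicate 1 being the highest library in both, and the difference of 9.14 points ± 4.72 (SE, adjusted p = 0.0985) did not pass the test. It passed without epiblast B6/CAST replicate 2, at 13.3 points, or without ExE B6/CAST replicate 1, at 12.6 points. The difference also passed when same-numbered libraries of a cross were treated as pairs.

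Ddx4 (chr13:112652336-112655194, 2859 bp), the RNA helicase of the germ granules, had 60.1%, 67.8%, 56.6% and 49.5% in the epiblast and 48.6%, 35.4%, 40.6% and 41.5% in ExE. The lowest epiblast library lay just above the highest of ExE, with a difference of 17.0 points ± 3.82 (SE, adjusted p = 0.00297). Tdrd1 (chr19:56824737-56826430, 1694 bp), whose Tudor domains bind methylated PIWI proteins, was the least methylated of the 10 genes, with 47.6%, 38.9%, 35.9% and 46.0% in the epiblast and 29.6%, 28.2%, 27.4% and 25.4% in ExE. The ExE libraries were close together, and all lay below the epiblast by a difference of 14.5 points ± 2.96 (SE, adjusted p = 0.00187). Stk31 (chr6:49391240-49395707, 4468 bp), a Tudor domain protein with a kinase fold, had 57.5%, 64.8%, 49.9% and 44.1% against 34.4%, 34.6%, 38.6% and 33.1%. The groups did not overlap and differed by 18.9 points ± 3.72 (SE, adjusted p = 0.00150), in a window that runs from position -4395 to 72 relative to the start.

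Among the meiotic chromosome genes, Sycp1 (chr3:102935884-102937186, 1303 bp), the transverse filament of the synaptonemal complex, had 72.7%, 79.5%, 75.7% and 80.6% in the epiblast and 47.5%, 42.9%, 35.2% and 35.6% in ExE. The gap between the groups was wide compared with the spread within them, and the difference of 36.8 points ± 3.20 (SE, adjusted p = 8.15e-05) was the largest of the 10 genes. Hormad1 (chr3:95559572-95562127, 2556 bp), a HORMA domain protein of unsynapsed axes, had 83.2%, 76.0%, 87.6% and 78.2% against 58.5%, 51.4%, 51.1% and 53.2%, a difference of 27.7 points ± 3.18 (SE, adjusted p = 0.000142). The groups again did not overlap. Sycp3 (chr10:88459310-88460456, 1147 bp), a component of the lateral elements and like Sycp1 a part of the synaptonemal complex, had 60.8%, 63.3%, 62.8% and 55.3% in the epiblast and 57%, 45.9%, 56.3% and 55.5% in ExE. The tissues overlapped, and the difference of 6.86 points ± 3.23 (SE) did not pass the test (adjusted p = 0.0739), but passed at 9.11 points without epiblast CAST/B6 replicate 2. Without ExE B6/CAST replicate 2, the lowest ExE library, it was 3.90 points (adjusted p = 0.216). Slc25a31 (chr3:40706196-40708978, 2783 bp) had 78.2%, 62.4%, 65.4% and 62.8% in the epiblast and 43.7%, 47.4%, 36.3% and 44.8% in ExE. All epiblast libraries lay above all ExE libraries, by 24.2 points ± 3.66 (SE, adjusted p = 0.000412).

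**Figure D2:**
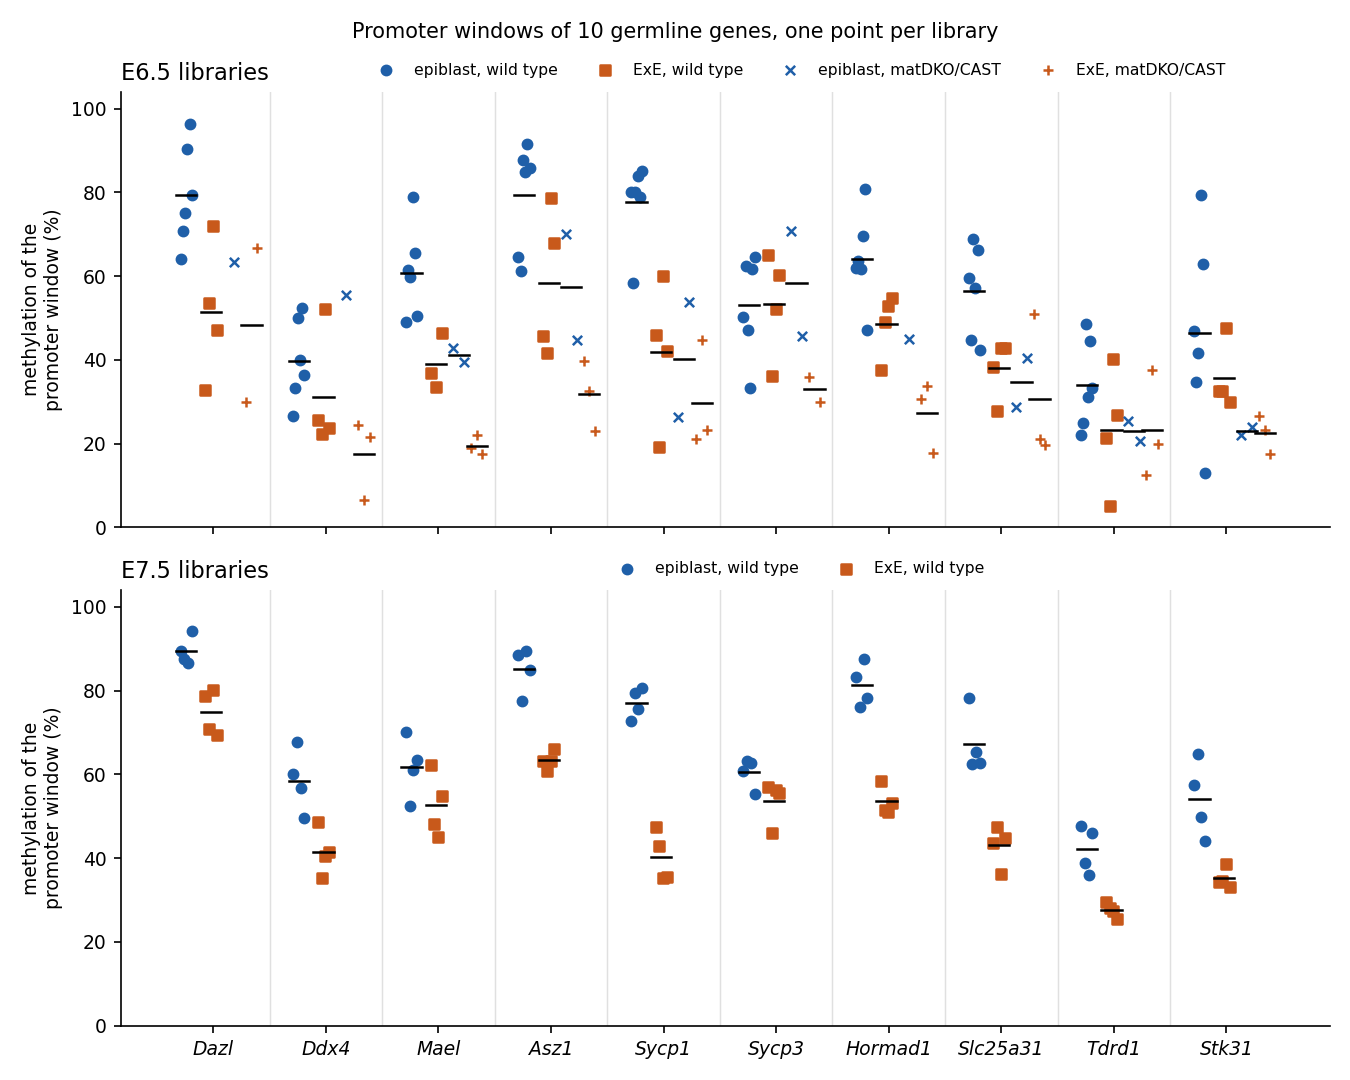
Methylation (%) of the promoter window of each of the 10 germline genes, with a point for each library and a bar at the mean of each group of at least 2 libraries, for E6.5 above and E7.5 below. At E7.5 the epiblast points of 8 genes all lie above the ExE points, and those of Mael and Sycp3 overlap with them, whereas at E6.5 the wild-type groups of all genes with a value in every library overlap.

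Without overlap between the tissues were thus 8 of the 10 genes, the same 8 that passed the test, against 73.8% of all windows. Because the ExE libraries had lower means, each library was also centred on its mean over the windows of the fit. Sycp1 then stayed higher in the epiblast by 20.5 points ± 3.15 (SE, adjusted p = 0.000432) and Hormad1 by 11.4 points ± 3.04 (SE, adjusted p = 0.0110), which are 2 of the 10 genes against 19.0% of all windows. Sycp3 was lower in the epiblast on this scale by -9.47 points ± 3.35 (SE, adjusted p = 0.0394), 1 of the 10 genes against 20.8% of all windows. Dazl (-1.63 points), Mael (-7.19), Tdrd1 (-1.87), Ddx4 (0.680), Stk31 (2.57), Asz1 (5.41) and Slc25a31 (7.87) did not pass the test after centring. For the 6 other genes called before centring, no difference beyond that of the library means passed the test.

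**Figure D3:**
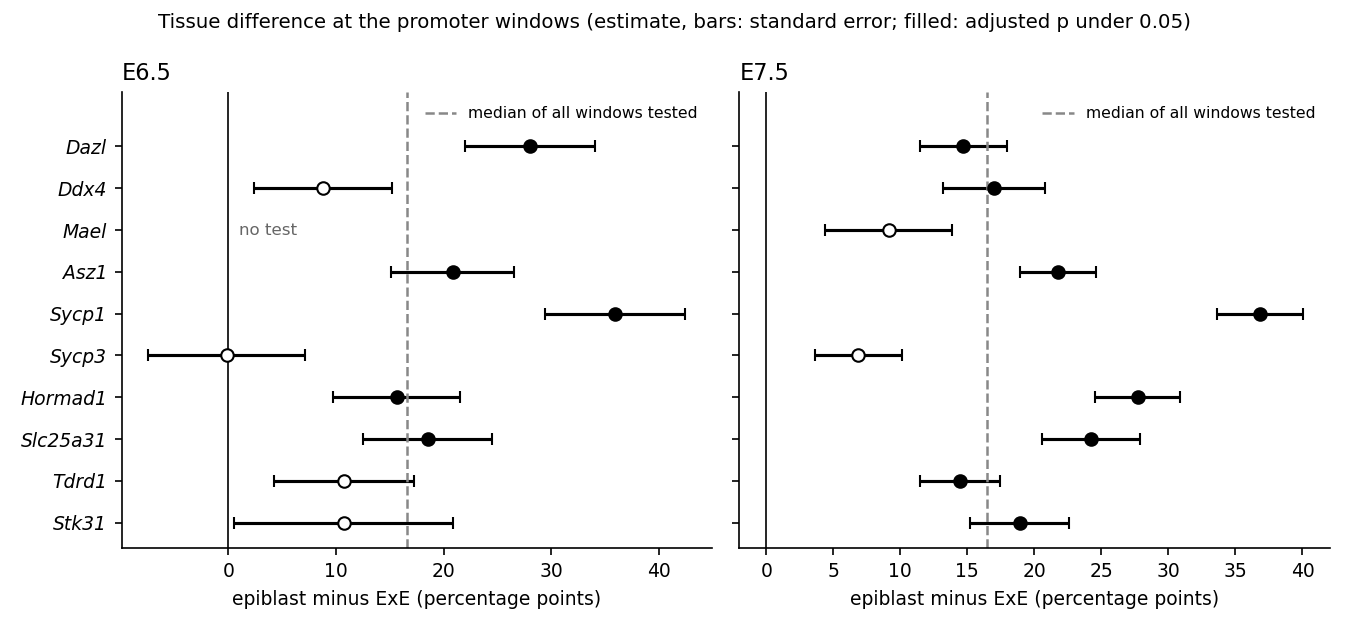
Estimated difference between epiblast and ExE (percentage points, limma, bars are standard errors) at the promoter windows of the 10 germline genes in wild-type libraries, at E6.5 on the left and E7.5 on the right, with separate horizontal scales and filled points where the adjusted p was under 0.05. The dashed lines mark the medians over all windows, 16.6 points at E6.5 and 16.5 at E7.5, with Sycp1 farthest to the right at both days and Sycp3 farthest to the left.

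At E6.5 the values scattered more between libraries, and the epiblast was called higher at 5 of the 9 genes with a value in all 10 wild-type libraries, against 59.6% of 250886 windows and 38.2% of the 12686 promoter windows. The median difference over the 9 genes was 15.6 points, against 16.6 points over all windows. For none of the 9 genes did all epiblast libraries lie above all ExE libraries, which 17.1% of all windows did. With the libraries centred, Sycp1 alone remained called, which is 1 gene higher against 6.25% of all windows and 0 genes lower against 8.66% (limma, with 2 of the 9 genes at an unadjusted p under 0.05, namely Sycp1 and Sycp3).

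Sycp1 again differed most. Its promoter window at E6.5 (chr3:102936092-102941543, 5452 bp) ran from 58.3% to 85.2% in 6 epiblast libraries with a median of 80.2%, and the ExE libraries had 46.0%, 19.3%, 60% and 42.2%. Only the lowest epiblast library, B6/CAST replicate 3, fell below the highest of ExE, and the difference was 35.9 points ± 6.50 (SE, adjusted p = 0.00140). In Dazl (chr17:50293464-50294145, 682 bp) the epiblast ran from 64.0% to 96.4% with a median of 77.3% and ExE had 32.7%, 53.5%, 72.0% and 47.2%, a difference of 27.99 points ± 6.03 (SE, adjusted p = 0.00305). ExE CAST/B6 replicate 1 was the only ExE library within the range of the epiblast. This library was also the highest ExE library at Ddx4, Asz1, Sycp1, Tdrd1 and Stk31.

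The other calls at E6.5 were Asz1, with 20.8 points ± 5.68 (SE, adjusted p = 0.00925), Slc25a31 with 18.5 points ± 6.02 (SE, adjusted p = 0.0205) and Hormad1 with 15.6 points ± 5.90 (SE, adjusted p = 0.0381). The call of Hormad1 was lost, at 12.5 to 17.0 points, when any 1 library other than epiblast CAST/B6 replicate 3 was left out, and that of Slc25a31, at 15.1 points, without ExE B6/CAST replicate 2. Asz1 and Hormad1 were not called without a term for the cross, nor were Slc25a31 and Hormad1 on the logit scale. Ddx4 (8.77 points), Tdrd1 (10.8) and Stk31 (10.7) did not pass the test. In the shortest window at the Ddx4 start (1222 bp) the direction turned, with 32.2% in the epiblast and 43.7% in ExE and a difference of -11.5 points ± 7.56 (SE, adjusted p = 0.1998). In the promoter window of Ddx4 a difference of 15.1 points was called without ExE CAST/B6 replicate 1, and for Stk31 a difference of 19.3 points without epiblast CAST/B6 replicate 3, which had 13.0% where the other 5 epiblast libraries had 34.8% to 79.3%. Sycp3 had 33.3% to 64.7% in the epiblast with a median of 55.9%, and 65%, 36.1%, 52.1% and 60.3% in ExE. Its difference of -0.131 points ± 7.28 (SE, adjusted p = 0.989) was the smallest of the genes tested. Mael had no value in ExE CAST/B6 replicate 1. In a fit that allows missing values, a choice made after seeing this gap, its difference was 20.4 points ± 6.16 (SE, adjusted p = 0.0185), from 49.0% to 79.0% in the epiblast with a median of 60.7% and from 33.5% to 46.4% in 3 ExE libraries.

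The neighbouring windows show how the level changed around the starts. Dazl had a sharp step. In its E7.5 promoter window, which ends 158 bp downstream of the start, the epiblast had 89.5%. In the next window downstream (chr17:50292937-50293477, 541 bp), which holds 49 CpGs, it had 36.7%, 22.2%, 32.4% and 20.6%, and ExE had 28.5%, 24.3%, 26.2% and 19.3%. In this window the tissues overlapped, with a difference of 3.39 points ± 3.93 (SE, adjusted p = 0.439). The window after that, of 7323 bp, had 17.0% in the epiblast and 10.4% in ExE, while the window upstream of the promoter window, of 2973 bp, had 84.8% and 72.9%. The same step was seen in the E6.5 table, where the epiblast mean fell from 79.4% in the promoter window to 35.3% in the 551 bp downstream, and the ExE mean from 51.4% to 16.0%.

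Tdrd1 had the opposite order. Its promoter window at E7.5 averaged 42.1% ± 5.62 (SD, n = 4) in epiblast libraries and 27.7% ± 1.76 (SD, n = 4) in those of ExE, and the next window downstream, of 2144 bp, 77.5% and 64.6%. At Mael and Sycp3 the promoter window was a shallow dip between higher neighbours. For Mael the epiblast had 79.8% upstream, 61.7% at the start and 85.1% downstream, and for Sycp3 83.5%, 60.5% and 79.7%. In ExE the dip was smaller, with 54.9%, 52.6% and 58.5% at Mael and 60.1%, 53.7% and 71.6% at Sycp3. These 2 genes did not pass the test of the tissues in the promoter window. A mean was also taken over all windows that overlap 1 kb on either side of the start, weighted by the overlap. It differed by 21.2 points ± 3.03 (SE, adjusted p = 0.000323) at Mael and 13.1 points ± 2.38 (SE, adjusted p = 0.00102) at Sycp3. The neighbours entered with their whole-window values and reach far beyond 1 kb. Only 25.5% and 23.5% of their CpGs lay within 1 kb at Mael, and 16.9% and 5.36% at Sycp3. The tissue difference at these starts thus depended on how far from the start it was measured. Over all genes, the upstream neighbour was higher than the promoter window in 3 of the 5 genes that had both at E7.5, in either tissue, and the downstream neighbour in 5 of 9.

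At Sycp1 the level stayed high across the start in the epiblast, with 77.1% in the promoter window and 67.5% in the next 734 bp downstream at E7.5, against 40.3% and 33.0% in ExE. At E6.5 a window of 563 bp (chr3:102935523-102936085), with 50 CpGs, begins 15 bp downstream of the Sycp1 start and gives the sharpest view of this gene at that day. The B6/CAST epiblast had 41.9%, 43.9% and 46.1% and the CAST/B6 epiblast 79.0%, 58.3% and 67.4%, while all 4 wild-type ExE libraries had 19.0% to 20.8%. The tissues were far apart, with a difference of 36.4 points ± 5.50 (SE, adjusted p = 0.000717). The matDKO/CAST libraries had 28.3% and 28.6% in the epiblast and 21.4%, 11.2% and 4.55% in ExE.

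**Figure D4:**
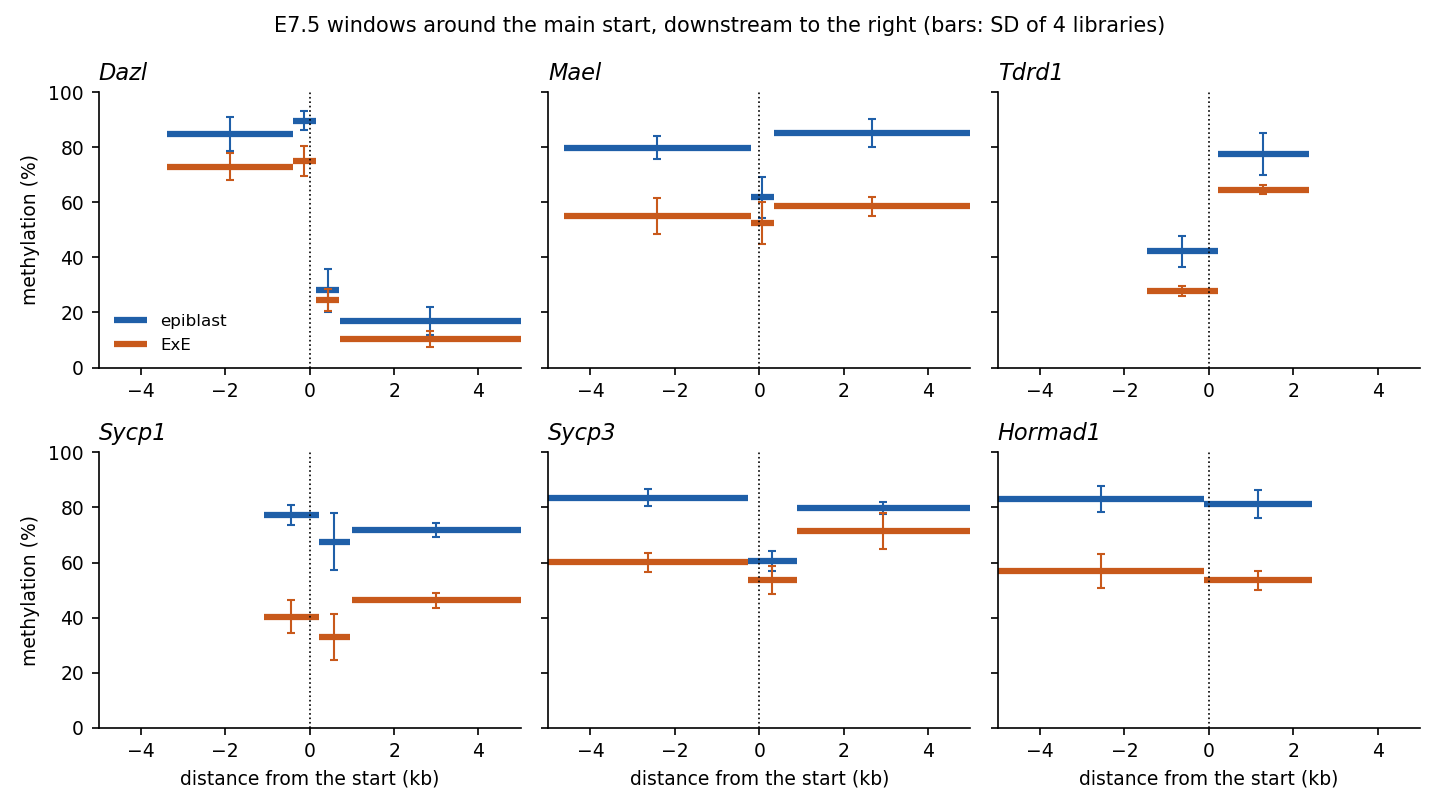
Mean methylation (%) of the E7.5 windows within 5 kb of the main start of 6 of the germline genes, as horizontal lines over the extent of each window with the SD of 4 libraries as bars, against the distance from the start (kb, downstream to the right). Dazl falls from 89.5% at its start to 27.97% in the next window of the epiblast, Tdrd1 rises from 42.1% to 77.5%, and Mael and Sycp3 have a dip at the start.

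The third question was what remained of this methylation in embryos whose mothers lacked DNMT3A and DNMT3B in the oocyte. Compared with B6/CAST, the cross with the same direction, matDKO/CAST libraries had lower means. The mothers of these crosses differ in strain (B6/129 and C57BL6/Babr) as well as in the deletion, and the 2 cannot be told apart here. In the epiblast 1 of 7 genes with a value in every library was called lower, Sycp1, against 23.4% of 192419 windows. At an unadjusted p under 0.05 there were 82707 windows and 2 genes. The median difference over the 7 genes was -15.5 points and that over all windows -16.4 points. For 4 of the 7 genes (Mael, Sycp1, Slc25a31 and Stk31) both matDKO/CAST libraries lay below all B6/CAST libraries, which 49.4% of all windows did.

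The Sycp1 promoter window had 26.5% and 53.8% in the matDKO/CAST epiblast and 80.2%, 58.3% and 80.1% in B6/CAST, a difference of -32.7 points ± 9.56 (SE, adjusted p = 0.0415). The lower of the B6/CAST libraries was only a few points above the higher of matDKO/CAST, and the call was lost when any 1 of the 8 epiblast libraries other than B6/CAST replicate 3 and matDKO/CAST replicate 3 was left out, with -19.0 points without matDKO/CAST replicate 1. This window holds 46.0% of its CpGs within 1 kb of the start. In the 563-bp window just downstream of the start, with 28.3% and 28.6% against 41.9%, 43.9% and 46.1%, the difference was -15.5 points (adjusted p = 0.109), and the call was also lost on the logit scale (adjusted p = 0.136) and with the libraries centred (-16.02 points, adjusted p = 0.414). Slc25a31 had 28.8% and 40.6% against 59.6%, 44.8% and 69.0%, a difference of -23.1 points ± 9.25 (SE) that did not pass the test (adjusted p = 0.0935). Stk31 (-18.2 points), Mael (-15.5), Asz1 (-13.9), Tdrd1 (-8.82) and Sycp3 (5.07) did not pass it either. Over the alternatives tried the direction turned at Mael (up to 1.16 points), Asz1 (up to 2.83), Tdrd1 (up to 7.88) and Sycp3 (down to -7.43). The other 3 genes had a value in only 1 matDKO/CAST epiblast library: 63.5% at Dazl in replicate 3, and 55.6% at Ddx4 and 45.1% at Hormad1 in replicate 1. The B6/CAST libraries had 64.0%, 70.8% and 75% at Dazl, 26.6%, 33.3% and 50% at Ddx4 and 61.9%, 63.6% and 61.7% at Hormad1, so that Ddx4 was above all of them in its single library and the others below.

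In ExE limma called 0 of 254322 windows at the adjusted threshold, which is 0% and includes 0 of the 7 genes with a value in every library, while 65546 windows and 0 of the genes had an unadjusted p under 0.05. With limma's trend and robust settings the count was 0 as well. The differences ran from -15.9 points ± 7.13 (SE) at Hormad1 (adjusted p = 0.201) to 10.2 points ± 9.25 (SE) at Tdrd1 (adjusted p = 0.464), with a median of -6.46 points against -12.4 over all windows. Over the alternatives Hormad1 alone of the 7 kept its direction, and the estimates ran from -16.7 to 5.97 points at Ddx4, -26.7 to 0.532 at Asz1, -16.3 to 10.4 at Sycp1, -12.7 to 9.90 at Slc25a31, -5.05 to 22.7 at Tdrd1 and -13.2 to 2.35 at Stk31. For 4 of 8 genes (Mael, Asz1, Hormad1 and Stk31) all matDKO/CAST libraries lay below both B6/CAST libraries, against 47.7% of all windows. Mael had 18.9%, 22.1% and 17.5% against 36.8% and 33.5%, and Hormad1 had 30.6%, 33.9% and 17.7% against 37.6% and 49.0%. At Sycp1 the matDKO/CAST libraries, with 21.2%, 44.7% and 23.3%, lay within the B6/CAST values of 46.0% and 19.3%.

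Between the tissues of matDKO/CAST embryos the epiblast was called higher at 19.6% of 167307 windows and at 0 of the 5 genes with values throughout. At an unadjusted p under 0.05 there were 61124 windows and 1 gene. That was Asz1, with 70.0% and 44.7% in the epiblast and 39.7%, 32.7% and 23.1% in ExE, a difference of 25.6 points ± 8.86 (SE, adjusted p = 0.0556). The groups did not overlap. Whether matDKO/CAST lowered the genes differently in the tissues was tested as an interaction, in which limma called 0 windows, or 0%, and 0 of the 5 genes, with 14723 windows and 0 genes at an unadjusted p under 0.05 and 0 windows with the trend and robust settings. The largest estimate was that of Sycp1, at 29.8 points ± 15.1 (SE, adjusted p = 0.602), the matDKO/CAST difference being less negative in ExE.

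The crosses CAST/B6 and B6/CAST were compared next. At E7.5, limma called 0 of 383556 windows (0%) and 0 of the 10 genes between CAST/B6 and B6/CAST, with 26938 windows and 0 genes at an unadjusted p under 0.05, and the trend and robust settings called 0.00574% of the windows and none of the genes. The estimates ran from -6.39 points ± 3.72 (SE) at Stk31 to 3.33 points ± 2.83 (SE) at Asz1. At E6.5 the CAST/B6 libraries had higher means, 78.6% to 79.4% against 65.9% to 74.9% in the epiblast and 63.8% to 66.2% against 53.5% in ExE. In the E6.5 epiblast 0 windows (0%) and 0 of 7 genes were called, with 27360 windows and 0 genes at an unadjusted p under 0.05 and 0 windows with the trend and robust settings. In E6.5 ExE again 0 windows (0%) and 0 of 7 genes were called, with 59327 windows and 1 gene at an unadjusted p under 0.05 and 0.000786% of windows with the trend and robust settings. That gene was Asz1, with 78.6% and 68.0% in CAST/B6 and 45.8% and 41.7% in B6/CAST, a difference of 29.6 points ± 7.74 (SE, adjusted p = 0.115).

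At E7.5 the reads had also been assigned to the maternal and the paternal genome by the strain SNPs. Imprinted regions are known for methylation on the allele of a single parent, and the values of both alleles show whether the germline promoters have such a difference. In the epiblast limma called 0.00838% of 238529 windows as different between the parental alleles and 0 of the 6 genes with both alleles in every library, and in ExE 0.00722% of 318358 windows and 0 of 9 genes. At an unadjusted p under 0.05 there were 0 genes in either tissue, and the trend and robust settings called 0 of the genes. The differences, maternal minus paternal, ran from -5.16 points ± 4.11 (SE) at Sycp3 to 8.71 points ± 9.67 (SE) at Stk31 in the epiblast, and from -3.90 points ± 5.37 (SE) at Ddx4 to 4.26 points ± 4.74 (SE) at Tdrd1 in ExE. Asz1 had no allelic values in its promoter window, and Sycp1, Slc25a31 and Tdrd1 lacked an allele in 1 epiblast library.

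At Dazl both alleles were highly methylated. In the epiblast the maternal allele had 96.5%, 93.3%, 100.0% and 93.3% and the paternal allele 87.5%, 84.6%, 83.7% and 96.7%. In ExE the values were 78.2%, 79.2%, 68.1% and 83.7% on the maternal and 97.6%, 63.3%, 90.8% and 65.2% on the paternal allele, the maternal being higher in 2 of 4 libraries. At Hormad1 the epiblast had 88.9%, 84.4%, 92.9% and 75.4% on the maternal and 89.9%, 75.6%, 75% and 85.2% on the paternal allele. At Mael the single alleles scattered more than the whole in the epiblast. There the maternal minus paternal difference ran from -19.7 to 41.1 points over the 4 libraries. None of the 9 genes had the same parent higher in all libraries of both tissues.

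**Figure D5:**
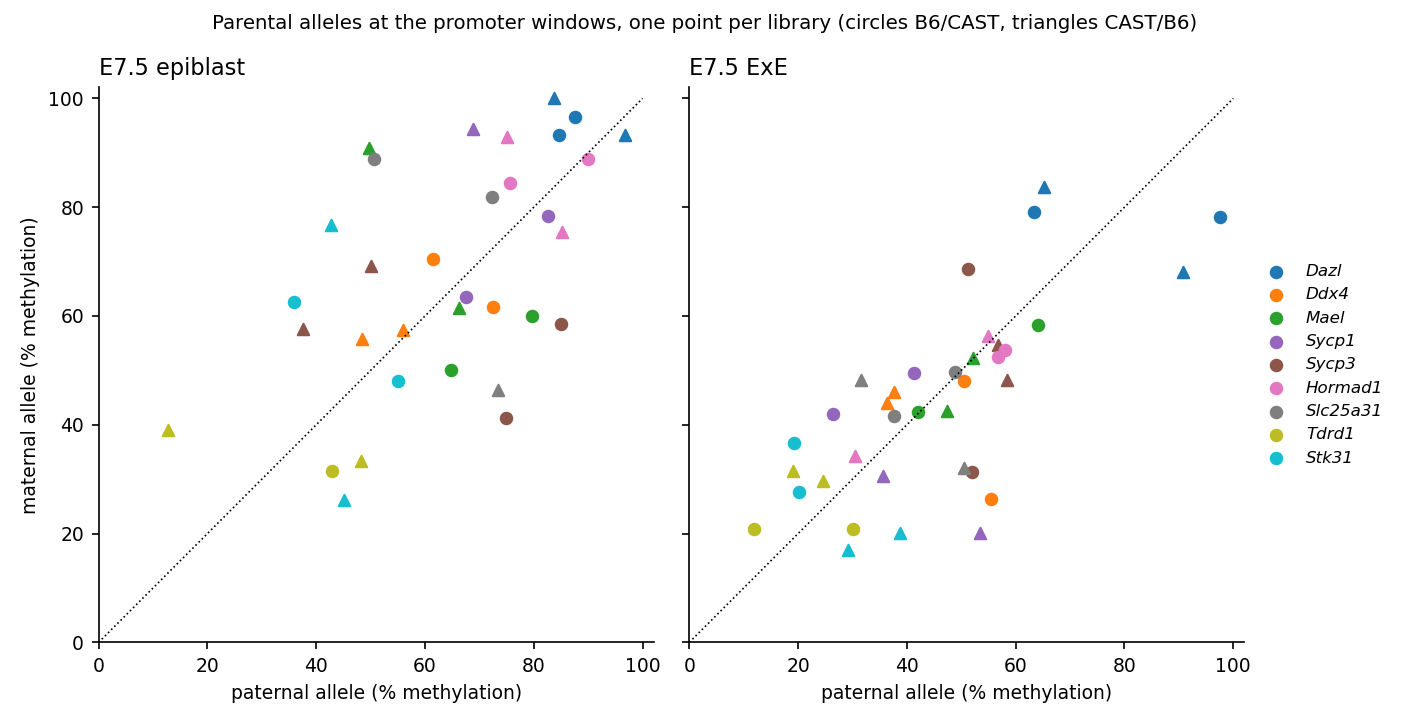
Methylation (%) of the maternal allele against that of the paternal allele in the promoter windows of 9 of the germline genes, with a point for each E7.5 library that has both alleles, epiblast on the left and ExE on the right, circles for B6/CAST and triangles for CAST/B6. The points scatter on both sides of the dotted line of equal values, and Dazl lies at or above 63.3% on both alleles in every library.

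Between the strains, limma called 0 windows (0%) and 0 of the 6 genes in the epiblast, with 15868 windows and 1 gene at an unadjusted p under 0.05, and 0 windows (0%) and 0 of the 9 genes in ExE, with 27808 windows and 2 genes. The trend and robust settings called 0 windows in the epiblast, 0.000942% of the windows in ExE and none of the genes. In the epiblast the gene was Sycp3. Its CAST allele had 85.0% and 74.8% in B6/CAST, where it is paternal, and 69.2% and 57.7% in CAST/B6, where it is maternal, and its B6 allele 58.5%, 41.3%, 50% and 37.5%. The CAST allele was higher in 4 of 4 libraries. The difference of B6 minus CAST was -24.9 points ± 4.11 (SE, limma adjusted p = 0.748). In ExE the B6 minus CAST difference at Sycp3 was 2.29 points ± 6.77 (SE, adjusted p = 0.958). The genes in ExE were Stk31 with 13.9 points ± 4.18 (SE, adjusted p = 0.540) and Sycp1 with 15.5 points ± 5.68 (SE, adjusted p = 0.554).

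Between the days the means of the wild-type libraries are given side by side without a test, because the windows, the material, the pooling and the sequencing differed. In the epiblast the E7.5 mean was higher than the E6.5 mean in 9 of 10 genes, by -0.639 points at Sycp1 to 18.7 points at Ddx4, and in ExE in 8 of 10, by -1.55 points at Sycp1 to 23.5 points at Dazl. Over the promoter windows of all genes the E7.5 mean was higher in 46.2% of 19865 in the epiblast and in 50.3% of 19856 in ExE, and the median difference was -0.35 points and 0.026 points, beside 7.80 and 4.94 points over the 10 genes. For 3 genes the E7.5 window lies whole within the E6.5 window and makes up 82.6% of it at Dazl, 84.8% at Ddx4 and 94.8% at Tdrd1. There the epiblast means were 79.4% ± 12.2 (SD, n = 6) at E6.5 and 89.5% ± 3.42 (SD, n = 4) at E7.5 for Dazl, 39.8% ± 9.89 and 58.5% ± 7.60 for Ddx4, and 34.1% ± 10.5 and 42.1% ± 5.62 for Tdrd1. The ExE means were 51.4% ± 16.3 (SD, n = 4) and 74.8% ± 5.44 (SD, n = 4) for Dazl, 31.0% ± 14.2 and 41.5% ± 5.44 for Ddx4, and 23.4% ± 14.6 and 27.7% ± 1.76 for Tdrd1. For the other genes the windows shared between 4.25% (Stk31) and 84.0% (Sycp1) of the E7.5 window. Which part of these differences belongs to the day cannot be told apart from the change in material.

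Other germline genes, listed by role, are given as counts, to be read against the 82.9% of all windows and 43.6% of promoter windows called higher in the E7.5 epiblast, and no list was tested against another. Of 16 further piRNA and granule genes the E7.5 epiblast was higher than ExE at 13, led by Tex19.1 with 36.2 points ± 2.78 (SE, adjusted p = 7.92e-05), Mov10l1 with 26.0 and Henmt1 with 24.9 points, and the median difference was 19.0 points against 16.5 over all windows. Of 11 synaptonemal complex, axis and cohesin genes it was higher at 8, led by Syce3 with 25.9, Sycp2 with 24.8 and Meikin with 19.2 points, with a median of 9.88. Of 16 germ cell regulators and testis enzymes it was higher at 12, led by Brdt with 29.7, Ldhc with 27.2 and Pgk2 with 23.9 points and with a median of 21.9, and of 14 meiotic recombination genes at 6, led by Msh4 with 27.4, Spo11 with 24.8 and Mei1 with 24.6 points and with a median of 3.60. None of these genes was called lower in the epiblast.

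Among the 19 of these genes with a promoter window under 2 kb, 5 reached 50% in the E7.5 epiblast and 3 in ExE, and 10 were under 20% in the epiblast. Of the promoter windows under 2 kb of all genes 1.58% and 1.15% reached 50%, and 99.3% of those under 1 kb and 75.8% of those of 1 to 2 kb were under 20% in the epiblast. The most methylated were Mov10l1, a helicase of the piRNA pathway, with 86.6% ± 2.74 (SD, n = 4), Sohlh2, a germ cell transcription factor, with 84.2% ± 6.34, and Stra8, the gate to meiosis, with 79.5% ± 8.95. At the other end Taf4b had 0.879% ± 0.272 (SD, n = 4), Msh5 1.13% ± 0.754 and Zcwpw1 1.43% ± 0.618. Prdm9, which sets the sites of meiotic recombination, had 1.44% ± 1.14. The 8 housekeeping genes with windows under 2 kb ran from 0.246% ± 0.236 (SD, n = 4) at Ldha to 7.45% ± 2.96 at Tbp, and Gapdh, in 2379 bp, had 48.6% and Ppia, in 3522 bp, 60.02%. The somatic counterparts of 2 germline genes, Slc25a4 for Slc25a31 and Rad21 for the meiotic cohesins, are among the short windows, with 2.37% ± 2.02 and 1.24% ± 0.834. Only 1 of 10 housekeeping genes, Ppia, was higher in the epiblast, by 13.9 points ± 3.06 (SE, adjusted p = 0.00272).

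The promoter windows whose 10 group means came closest to the mean of the 9 germline genes with E7.5 windows under 3 kb were, of 10901 genes, those of Ptgir, Gm10717, Pnpla1, Lep and Dcdc2c, with root mean square differences of 3.99 to 5.46 points. Of the germline genes themselves Mael, with 5.20 points, Slc25a31 with 6.41 and Hormad1 with 6.57 were closest to that mean, and Tdrd1 with 22.9 and Dazl with 19.05 farthest from it.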

How the data were processed

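The authors trimmed the PBAT reads with Trim Galore and aligned them with Bismark to GRCm38. The submitters' processing notes list versions 0.4.4 and 0.20.0, the study's methods name others, and which made the tables is not settled here. The deposited tables hold percent methylation for windows of nominally 100 CpGs, in 3 tables (E6.5, E7.5 and E7.5 by allele), with no coverage. At E7.5 the bisulphite conversion was repeated because the first was poor, per the labels. Replicates were not pooled, and no column went unused. The windows of both days differ, and no window test crosses the tables.

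Differences were tested with limma 3.58.1 (R 4.3.3, lmFit and eBayes) on the percentages over all autosomal windows with a value in every library, with Benjamini-Hochberg adjustment over those windows and a threshold of 0.05, and the script was tested on simulated data. Tissue and cross were terms of the E7.5 and wild-type E6.5 fits. Genes were named as all 10 members by their promoter window, with the 3 genes of each other germline list that differed most between the E7.5 tissues, the short windows at the ends of the range and the 5 genes most alike. The members and lists were chosen with earlier results of these data known. Starts came from GENCODE M21, sequences from RefSeq. The alternatives were a logit scale (offset of 1 percentage point), eBayes trend and robust settings, looser rules on missing values, other windows at the start, centring, other cross terms or wild types, a replicate block and leaving out each library. The labels do not say whether a shared replicate number marks the same embryo or pool. The heading of 1 E6.5 epiblast B6/CAST library has the number 2, which no sample title of its group has (1, 3 and 4), so that it was used without a number and left out of the pairing check. It and 4 ExE headings carry the word reimport, whose meaning is not given.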

Additional observations from a re-analysis of the deposited data

Results flagged for a closer look

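In 39 groups of 4 or more libraries, the gap between the extreme library and its neighbour was tested against Dixon's critical value, which chance exceeds in about 1 in 20 groups, and 4 members had such a library. In the wild-type E6.5 epiblast, Sycp1 had 58.3% in B6/CAST replicate 3, where the other 5 libraries had 78.8% to 85.2%. In wild-type E6.5 ExE, CAST/B6 replicate 1 stood apart at Ddx4, with 52.2% where the other 3 libraries had 22.4% to 25.7%, and at Stk31, with 47.7% where they had 30% to 32.7%. In E7.5 ExE, Sycp3 had 45.9% in B6/CAST replicate 2, where the other 3 libraries had 55.5% to 57%.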

How the results depend on the processing

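The number of germline genes called between the wild-type tissues at E6.5 was 5, and became 3 on the logit scale, 3 with no cross term, 2 in B6/CAST only, 1 in CAST/B6 only, 1 with the libraries centred and 3 to 6 when single libraries were left out. The share of all windows called higher in the epiblast, 59.6% in the fit as reported, was 53.7%, 46.4%, 27.0%, 23.2%, 6.25% and 48.2% to 61.2% in these fits, in the same order. At E7.5 the count of 8 became 3 with the libraries centred, namely 2 of the 8 (Sycp1 and Hormad1) and Sycp3 in the opposite direction. The single call between matDKO/CAST and B6/CAST epiblast became 0 on the logit scale, with the shortest window at the start or with the libraries centred, 2 with the wild types pooled and 0 to 1 without single libraries (5.43% to 28.7% of all windows lower). In ExE 1 gene was called with the wild types pooled. Between the tissues of matDKO/CAST, 2 of 9 genes tested (Asz1 and Hormad1) were called with the overlap-weighted mean of the windows. The fit as reported tested only 5 genes. Without single libraries 0 to 2 genes were called. The shares of all windows called higher were 19.6% and 11.1% to 21.0% in these alternatives, in the same order. Of all windows, wild types pooled gave calls at 47.7% in the epiblast and 26.3% in ExE, the logit scale gave 0% in the matDKO/CAST epiblast comparison and 0.610% between the matDKO/CAST tissues, and centring gave 0% and 1.90%. The cause was not tested. Apart from leaving out single libraries, 96 alternatives kept such counts within 1.5 times and 14 did not. Most comparisons had a count of 0 genes in the fit as reported, so the 96 say little about the other counts.

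At E6.5 the direction turned at Ddx4 with the shortest window (-11.5 points) and centred (-7.72), at Sycp3 with the overlap-weighted mean (2.14), in B6/CAST only (2.73) and without single libraries (-6.36 to 4.77), and with centring at Hormad1 (-0.854), Tdrd1 (-5.72) and Stk31 (-5.75). At E7.5 it turned with centring at Dazl (-1.63), Mael (-7.19), Sycp3 (-9.47) and Tdrd1 (-1.87).

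None of 39 correlations between same-numbered libraries of different groups (-0.0996 to 0.0506) was over 0.1, and the fits as reported do not pair the libraries. The highest were those between the E7.5 tissues of the same cross (0.0486 to 0.0506). Low correlations cannot tell whether same-numbered E7.5 libraries came from 1 embryo. With a replicate block the matDKO/CAST epiblast count was 0, with 0% of all windows called lower, and that between the matDKO/CAST tissues 1, with 15.3% called higher. At E6.5 the block gave 5 genes and 21.1% of all windows, with Asz1 lost (adjusted p = 0.0846) and Stk31 gained (0.0367), and at E7.5 it gave 9 genes with Mael (0.0144) and 82.9% of all windows. The tables hold no coverage, so that a coverage minimum was not run and depth could not be weighed.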
